A study of Homo sapiens with 24 samples.

Results

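The IL-1 family and inflammatory chemokine genes were followed in sorted cells of 2 human cancer cell lines treated with nifuroxazide (NIF). The 10 genes are IL1A, IL1B, IL18 and IL33, which code for IL-1 family cytokines, IL1R1, which codes for the receptor of IL-1, and the chemokine genes CXCL1, CXCL2, CXCL3, CXCL8 and CCL20. They were taken by symbol from the 28307 genes of the count table, and each symbol had 1 row. SUM159 is a breast cancer line and SW620 a colon cancer line. Cells of each line were treated with NIF, a nitrofuran antibiotic, or with its vehicle DMSO for 30 h. They were sorted by the ALDEFLUOR assay into cells with high (ALDHbr) and low (ALDHneg) aldehyde dehydrogenase activity. The study's methods for these libraries do not make clear whether sorting came before or after treatment. The design had 8 groups of 3 libraries each (24 in all): ALDHbr and ALDHneg cells under DMSO and under NIF in either line. The 3 libraries of a group came from independent experiments on a single line, so their spread is that of repeat cultures. Per the study's reporting form the lines were checked by morphology alone.

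The genes were chosen with results of these data known: IL1B was picked for its fall under NIF in SUM159 ALDHbr cells. Values of that contrast, and of the difference between the ALDHbr and ALDHneg responses of SUM159, are therefore given as description with no test. The other comparisons were tested gene by gene over all genes. They are not all separate from the first one, since the contrasts between ALDHbr and ALDHneg cells reuse its libraries. The SUM159 ALDHneg libraries of a replicate number are also taken to share its experiment. The labels give only the number, and the pairing was inferred from correlated deviations of the libraries.

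IL-1 alpha and IL-1 beta bind the same receptor, IL1R1, which pairs with the accessory protein IL1RAP and signals through MYD88, IRAK kinases and TRAF6 to the transcription factor NF-kappaB. NF-kappaB in turn drives chemokine genes such as CXCL8 and CXCL2, genes of its own inhibitors such as NFKBIA and TNFAIP3, and IL1A and IL1B themselves. IL-1 beta and IL-18 are made as inactive precursors that caspase-1 cuts in the inflammasome, whereas the IL-1 alpha precursor is already active. The chemokines of the CXCL group listed here attract neutrophils through CXCR1 and CXCR2, and CCL20 attracts lymphocytes and dendritic cells through CCR6. Many tumour lines make these factors without added stimulus.

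The promoters show what the 4 CXCL genes shared beyond their name. RefSeq windows (GRCh38.p14) were found for 9 of the 10 genes, with 14 annotated starts in all. IL18 was not matched. The 200 bases before the start are printed here for the genes that the results turn on, 5′ to 3′ in the direction of transcription, with capitals for 3 motifs: GGAATTTCC (a kappaB site in the form found in CXCL8), TGANTCA (the AP-1 site) and TTCNNNGAA (the STAT site). Both strands were searched, and the last pair of motifs reads the same on either strand. The windows lie at chr4:73740369-73740568, plus strand for CXCL8, chr4:73869193-73869392, plus strand for CXCL1, chr4:74099196-74099395, minus strand for CXCL2 and chr4:74038690-74038889, minus strand for CXCL3, a single chemokine cluster, and at chr2:112784494-112784693, minus strand for the first start of IL1A and chr2:112836780-112836979, minus strand for IL1B.
CXCL8: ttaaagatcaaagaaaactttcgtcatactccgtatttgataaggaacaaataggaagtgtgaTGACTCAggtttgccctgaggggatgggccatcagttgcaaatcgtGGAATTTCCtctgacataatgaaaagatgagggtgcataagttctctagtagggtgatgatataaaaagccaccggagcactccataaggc
CXCL1: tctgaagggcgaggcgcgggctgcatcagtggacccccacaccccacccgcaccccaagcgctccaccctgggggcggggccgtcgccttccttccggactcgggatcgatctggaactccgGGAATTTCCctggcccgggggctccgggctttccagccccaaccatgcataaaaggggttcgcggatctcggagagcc
CXCL2: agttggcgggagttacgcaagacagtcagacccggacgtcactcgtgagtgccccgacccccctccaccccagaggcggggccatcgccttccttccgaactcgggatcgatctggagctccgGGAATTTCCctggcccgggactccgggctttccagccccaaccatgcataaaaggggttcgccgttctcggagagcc
CXCL3: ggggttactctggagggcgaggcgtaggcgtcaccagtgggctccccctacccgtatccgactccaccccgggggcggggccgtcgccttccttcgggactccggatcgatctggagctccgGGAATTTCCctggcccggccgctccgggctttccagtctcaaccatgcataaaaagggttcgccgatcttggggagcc
IL1A: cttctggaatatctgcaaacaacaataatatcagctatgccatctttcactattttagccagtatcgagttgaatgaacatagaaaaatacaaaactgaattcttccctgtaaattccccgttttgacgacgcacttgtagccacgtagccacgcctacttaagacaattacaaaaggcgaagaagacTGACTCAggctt
IL1B: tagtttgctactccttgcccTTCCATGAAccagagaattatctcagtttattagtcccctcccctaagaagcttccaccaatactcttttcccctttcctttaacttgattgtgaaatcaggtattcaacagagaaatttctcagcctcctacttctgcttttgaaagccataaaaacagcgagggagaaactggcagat

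GGAATTTCC stood in all 4 CXCL windows, at bases -91 to -83 in CXCL8, -78 to -70 in CXCL1 and CXCL3, and -77 to -69 in CXCL2. In CXCL1, CXCL2 and CXCL3 it lay inside the identical run CTCCGGGAATTTCCCTGGCCCGG of 23 bases. Of all 35116 RefSeq windows of 250 bases before a start, 145 (0.413%) held this form. The letters were read from CXCL8 itself, so its own match was given. CCL20 had no such form but a match to the wider kappaB consensus at -79 to -70, which 9.96% of all windows held and which overlapped the shorter form in CXCL1, CXCL2 and CXCL3. The AP-1 letters stood in CXCL8 at -137 to -131 and in IL1A at -12 to -6 before its first start and at -105 and -55 before its second. In IL1A the match at -105 is the same stretch of bases as that at -12 before the first start. IL1B held the STAT letters TTCCATGAA at -180 to -172 and neither kappaB form, and the third start of IL1R1 held the STAT letters at -47 to -39. The AP-1 and the STAT letters each stood in 6.57% of all windows. A match describes letters in a window and does not show that a factor binds there.

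Library depth ran from 30253187 to 43127948 counts per library. Levels are given in CPM, a gene's counts relative to the size of its library, with sizes scaled by TMM within each line. By group means the libraries carried the markers of their lines. All 10 markers of mesenchymal-like breast lines exceeded 1 CPM in SUM159 (4 to 5 in SW620). Of 10 colon epithelial markers, 7 to 9 did so in SW620 and 1 in SUM159. Replicate 3 of SUM159 ALDHbr cells under DMSO stood apart, with 87 counts of EPCAM, 75 of KRT20, 68 of CDH1 and 55 of LGALS4. Each of these colon markers exceeded 1 CPM there. The lowest counts in that group were 0, 0, 0 and 1. LYZ, a leukocyte marker high in SW620, had 171 counts in the same library. The source of these transcripts, and their part in the results, was not tested. The sort showed in ALDH1A1, the main enzyme of the assay, at 135 and 177 CPM in SUM159 ALDHbr cells (DMSO and NIF) against 0.480 and 0.419 CPM in ALDHneg cells, and at 1314 and 955 against 901 and 549 CPM in SW620. Of 10 leukocyte markers, 2 or 3 exceeded 1 CPM in any group. They were led by LYZ in SW620 (summed level of the list 1231 to 1600 CPM) and by CD68 in SUM159 (14.5 to 43.3 CPM), while PTPRC, the pan-leukocyte marker, was at or near 0. The summed level of 8 fibroblast and endothelial markers moved with group in SUM159. It was 51.4 to 59.8 CPM in ALDHbr cells under DMSO, 29.3 to 39.7 under NIF, and 22.8 to 33.5 and 13.8 to 19.6 in ALDHneg cells. Most of this sum was PDGFRA, at group means of 9.47 to 50.6 CPM. PDGFRB went the other way, at 1.28 and 1.27 CPM in ALDHbr cells (DMSO and NIF) against 8.61 and 6.53 CPM in ALDHneg cells. The groups had the same order in PDGFRA, but not in PDGFRB, as in IL1A and IL1B below. The part of these markers in the results was not tested.

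In SUM159 9 of the 10 genes passed the filter on low counts, all but IL33, and in SW620 8 did, without IL1B and IL33. CXCL8, which codes for interleukin-8, stood at 461, 501 and 348 CPM (replicates 1 to 3) in ALDHbr cells under DMSO, 330, 302 and 312 CPM in ALDHneg cells under DMSO, 234, 247 and 202 CPM in ALDHbr cells under NIF, and 116, 159 and 80.4 CPM in ALDHneg cells under NIF. No neighbouring pair in this order overlapped. In SW620 the same gene lay between 5.20 and 7.44 CPM in all 12 libraries. Each line was scaled apart, so levels across lines are set side by side without a test.

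IL1A and IL1B had another order, led by the ALDHbr cells. IL1A was at 62.7, 66.2 and 50.8 CPM in SUM159 ALDHbr cells under DMSO, 30.5, 29.4 and 30.1 CPM under NIF, 7.33, 5.74 and 2.17 CPM in ALDHneg cells under DMSO, and 3.31, 2.47 and 1.86 CPM in ALDHneg cells under NIF. The last pair of groups overlapped, the others did not. IL1B was at 10.9, 9.60 and 6.49 CPM, then 2.23, 1.65 and 2.38 CPM in the ALDHbr groups. Its ALDHneg levels were 1.83, 0.709 and 0.764 CPM under DMSO and 0.653, 0.487 and 0.120 CPM under NIF, the last value resting on 4 counts. For IL1B the ALDHbr cells under NIF thus overlapped the ALDHneg cells under DMSO. In SW620 both genes stood at the edge of detection, with 3 to 13 counts per library for IL1A and 1 to 13 for IL1B.

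CXCL2 had the same order of SUM159 groups as CXCL8, with more overlap. CXCL2 averaged 103 ± 24.0 CPM in ALDHbr cells under DMSO, 64.8 ± 11.1 in ALDHneg cells under DMSO, 63.1 ± 17.2 in ALDHbr cells under NIF and 30.8 ± 9.56 in ALDHneg cells under NIF (mean ± SD, n = 3). Only the last group stood clear of its neighbour. CXCL3 averaged 46.3 ± 14.9 and 30.3 ± 9.10 CPM in ALDHbr cells under DMSO and NIF, and 49.2 ± 13.5 and 24.2 ± 7.80 CPM in ALDHneg cells. CXCL1 and CCL20 had SUM159 group means of 1.66 to 5.84 and 1.10 to 4.83 CPM. In both ALDHbr groups replicate 3 was the lowest library for each of the 5 chemokine genes, from CXCL1 (2.18 CPM under DMSO against 8.34 and 7.01) to CXCL8. Under DMSO this was the library with the colon transcripts given above. Under NIF, EPCAM had at most 5 counts in any SUM159 ALDHbr library. CXCL1, CXCL2 and CXCL3 are near-identical copies, and how the counting treated reads shared between them is not given in the sources used here, so the split of counts among them is uncertain.

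IL1R1 and IL18 varied little within SUM159. IL1R1 averaged 61.1 ± 7.27 and 58.6 ± 4.39 CPM in ALDHneg cells under DMSO and NIF, and 46.0 ± 3.68 and 41.5 ± 3.48 CPM in ALDHbr cells. The ALDHneg groups lay above the ALDHbr groups without overlap. IL18 was at 42.6 to 64.1 CPM in the 6 DMSO libraries and 56.2 to 78.9 CPM in the 6 NIF libraries. SW620 held IL18 at 11.3 to 14.5 CPM and IL1R1 at 0 to 0.659 CPM. IL33 was not detectable at this depth in most libraries: 10 of 24 had no count and 22 had at most 3. The highest had 4 counts, and a count of 0 allows up to 0.0696 to 0.0992 CPM.

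**Figure D1:**
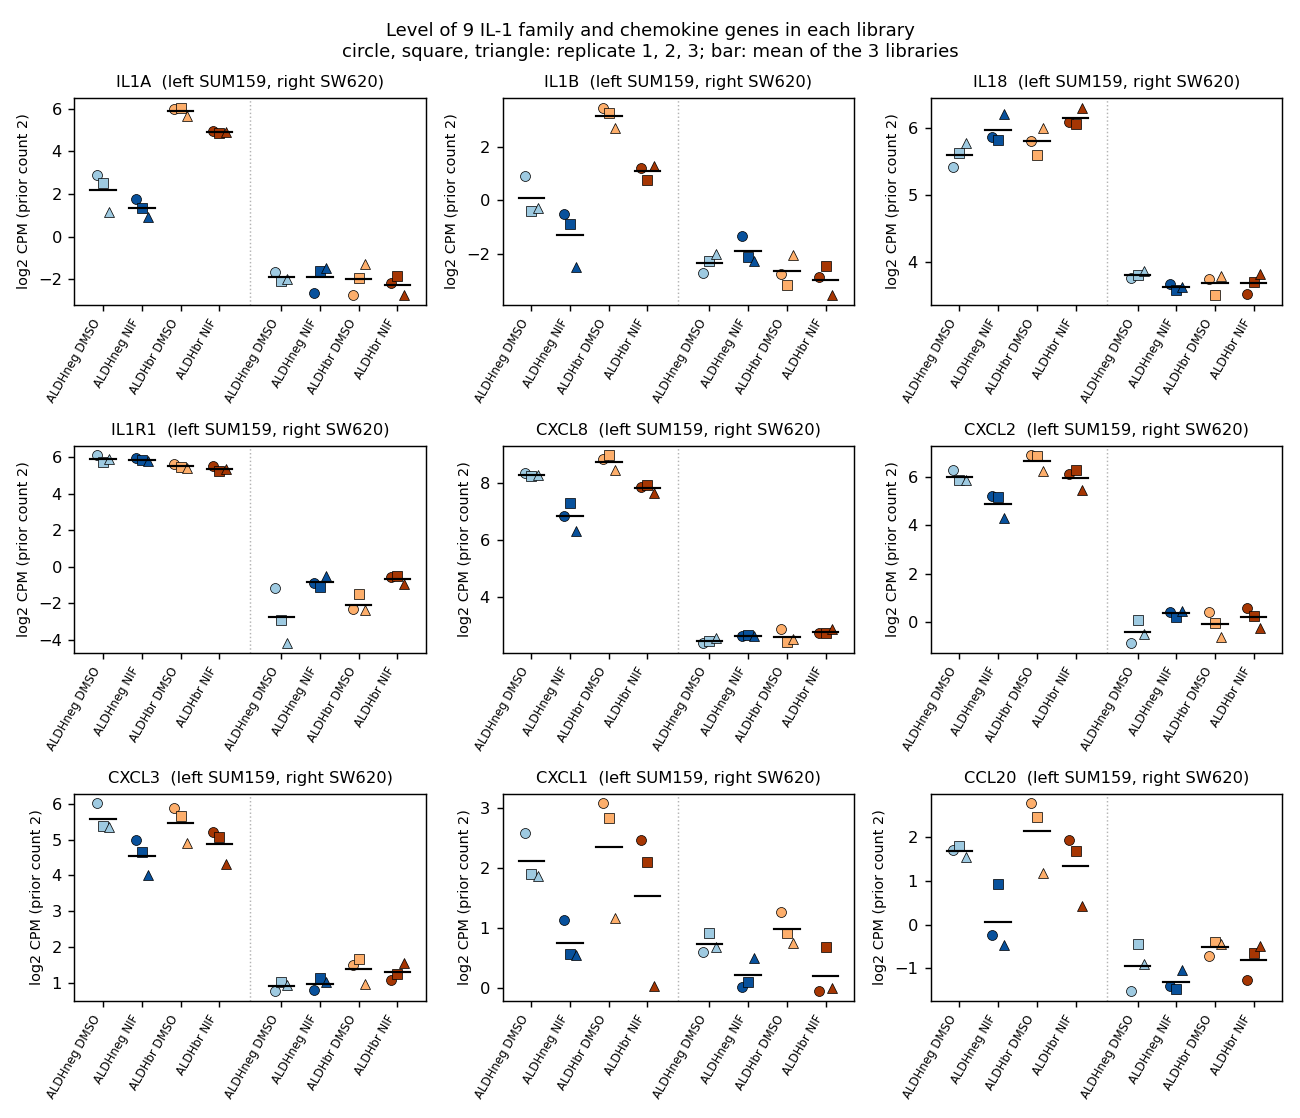
Level of each member but IL33 in all 24 libraries (y axis, log2 CPM with a prior count of 2; circle, square and triangle, replicates 1, 2 and 3; bar, mean of the group). IL1A and IL1B are highest in the SUM159 ALDHbr libraries under DMSO, and CXCL8 separates SUM159 (80.4 to 501 CPM) from SW620 (5.20 to 7.44 CPM).

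In SUM159 ALDHbr cells IL1B had the most negative fold change of the members under NIF, and the values that follow describe the contrast the genes were picked on. IL1B was 4.89, 5.81 and 2.73 times lower under NIF than under DMSO in replicates 1 to 3, a log2 fold change of -2.10 (SE 0.34, 95% interval -2.83 to -1.36). IL1A was 2.05, 2.25 and 1.69 times lower (-0.99, SE 0.24) and CXCL8 1.97, 2.03 and 1.73 times lower (-0.94, SE 0.18). These 3 genes were the ones whose NIF libraries all lay below the DMSO libraries. CCL20 had a log2 fold change of -0.81 (SE 0.42), CXCL1 of -0.71 (SE 0.49), CXCL2 of -0.71 (SE 0.23) and CXCL3 of -0.61 (SE 0.28). Within replicate numbers these 4 genes were 1.49 to 2.26 times lower under NIF. IL1R1 had -0.15 (SE 0.09), and IL18, at 0.34 (SE 0.12), was the single member whose NIF libraries all lay above the DMSO libraries (11% of all genes did so, and 12.2% lay below). Of all 14953 genes tested in this contrast, 3.16% passed the threshold of an adjusted p of 0.05. In bulk RNA, fewer cells that make a transcript and less transcript per cell cannot be told apart.

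The contrast of NIF with DMSO was tested in the ALDHneg cells of SUM159. Their libraries are taken to share experiments with the ALDHbr libraries of the same number, so the result is not treated as an independent repeat of the ALDHbr contrast. CXCL8 fell by 1.41 on the log2 scale (SE 0.18, 95% interval -1.80 to -1.02, edgeR adjusted p = 0.000668), and its 3 NIF libraries were 2.85, 1.90 and 3.87 times below the DMSO libraries of the same number. CXCL2 fell by 1.07 (SE 0.24, edgeR adjusted p = 0.0243), from 77.6, 58.6 and 58.1 CPM to 37.0, 35.7 and 19.8 CPM. These 2 of 9 members tested passed the threshold, where 3.3% of all genes did (2.2% lower). In this fit, which did not use the replicate number, the call of CXCL2 rested on single libraries. It was at -0.92 (edgeR adjusted p = 0.106) without DMSO replicate 1 and -0.83 (0.0982) without NIF replicate 3. With the replicate number as a block and all libraries, CXCL2 was at -1.11 (SE 0.10, edgeR adjusted p = 1.63e-07). CXCL8 kept its call without any 1 library, at -1.68 to -1.19.

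The other chemokines and both IL-1 genes had negative fold changes in ALDHneg cells too, with wider errors. CCL20 had a log2 fold change of -1.55 (SE 0.46), CXCL1 of -1.39 (SE 0.53), IL1B of -1.34 (SE 0.47), CXCL3 of -1.02 (SE 0.28) and IL1A of -0.95 (SE 0.32). Their edgeR adjusted p values ran from 0.0669 for CXCL3 to 0.186 for CXCL1, and none passed. IL1A passed once DMSO replicate 3 was left out (-1.34, edgeR adjusted p = 0.00221) and CCL20 once NIF replicate 2 was (-2.10, 0.0489). IL18 was at 0.36 (edgeR adjusted p = 0.137), with all NIF libraries above the DMSO libraries as in 9.65% of all genes, and IL1R1 at -0.06 (0.812). The libraries of NIF and DMSO did not overlap for 6 members (IL1B, CXCL1, CXCL2, CXCL3, CXCL8 and CCL20), all lower under NIF, where 10.1% of all genes were lower without overlap. The median over the 9 members was -1.07, against 0.00333 over all genes tested.

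The libraries of SUM159 varied together by replicate number, and a fit with that number as a block changed the ALDHneg result. With the block 8 of 9 members passed (CXCL8, CXCL2, CXCL3, CCL20, CXCL1, IL1A and IL1B lower, IL18 higher), beside 13.2% of all genes (7.08% lower). The fold changes barely moved: CXCL3 was at -1.05, CCL20 at -1.65, CXCL1 at -1.45, IL1B at -1.36 and IL1A at -0.94. The edgeR adjusted p of IL1B was 0.0137 with the block, the lowest of its alternatives, which reached 0.239.

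**Figure D2:**
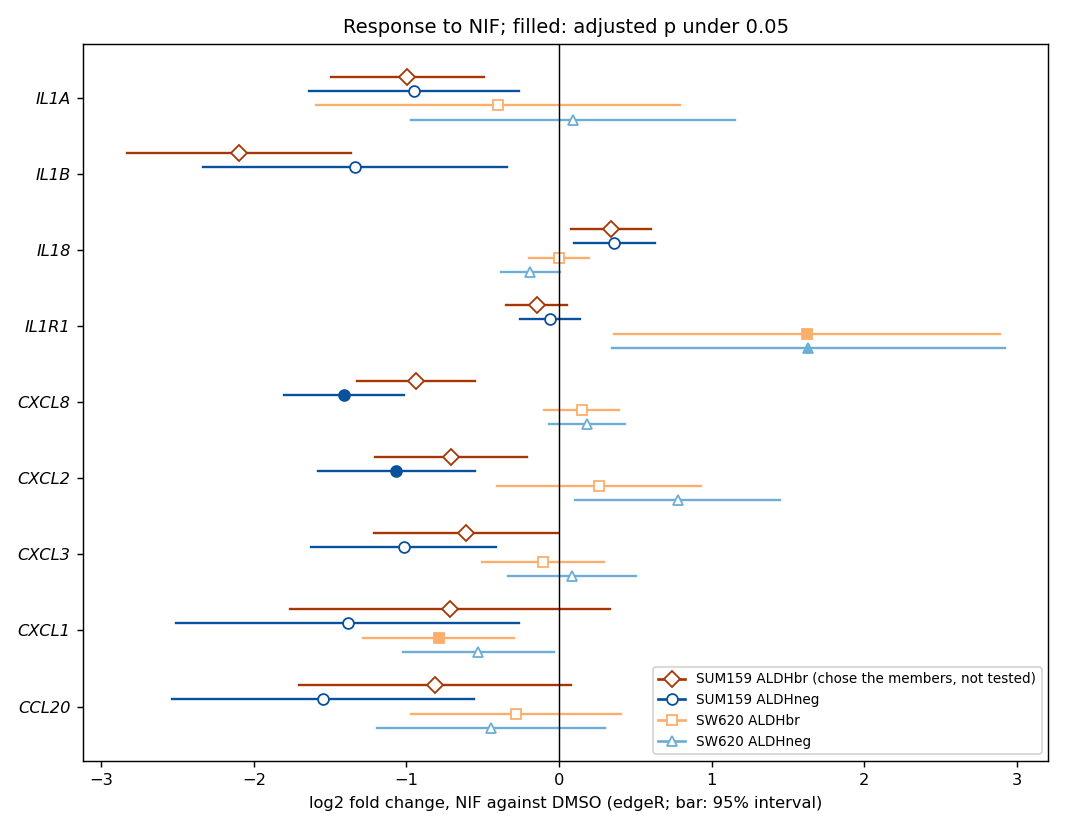
Log2 fold change of NIF against DMSO for each member in the 4 sorted populations (x axis; points, edgeR estimates; bars, 95% intervals; filled points passed an adjusted p of 0.05, and SUM159 ALDHbr, used to choose the genes, carries no test). CXCL8 lies at -0.94 and -1.41 in SUM159 and at 0.15 and 0.18 in SW620.

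The log2 fold change of IL1B in ALDHbr cells minus that in ALDHneg cells of SUM159 was -0.76, with an interval of -2.03 to 0.51 that included 0. For CXCL8 it was 0.47 (interval -0.07 to 1.01) and for IL1A -0.04. These values are descriptive, since they contain the contrast that chose the genes.

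ALDHbr and ALDHneg cells of SUM159 differed most in the IL-1 cytokines. Under DMSO, IL1A was 8.54, 11.5 and 23.4 times higher in ALDHbr cells of replicates 1 to 3 (log2 difference 3.58, SE 0.27, edgeR adjusted p = 2.38e-07). IL1B was 5.95, 13.5 and 8.49 times higher (3.02, SE 0.37, edgeR adjusted p = 2.39e-05). The ALDHbr libraries under DMSO belong to the contrast on which IL1B was picked. A choice by its fall favours high values in them, so its p value here is not separate from that choice. IL1R1, the receptor, was lower by a log2 difference of -0.41 (SE 0.09, edgeR adjusted p = 0.00498). These 3 of 9 members passed, where 23% of all genes did (10.7% higher, 12.3% lower), and each passed without any 1 library. The chemokines differed less: 0.67 for CXCL2 (edgeR adjusted p = 0.0521), 0.47 for CXCL8 (0.0732), 0.61 for CCL20 (0.328), 0.40 for CXCL1 (0.613) and -0.09 for CXCL3 (0.862). CXCL2 passed without ALDHbr replicate 3 (0.85, edgeR adjusted p = 0.0181) or ALDHneg replicate 1 (0.82, 0.0466), and CXCL8 without ALDHbr replicate 3 (0.61, 0.0292). The sign for CXCL3 turned without ALDHbr replicate 3 (0.15) or ALDHneg replicate 1 (0.16). With the replicate number as a block CXCL2, CXCL8 and IL18 (0.20) passed too, for 6 of 9, beside 36% of all genes.

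Under NIF CXCL2 and CXCL8 passed beside the IL-1 genes. IL1A was 9.22, 11.9 and 16.2 times higher in ALDHbr cells (3.53, SE 0.29, edgeR adjusted p = 5.55e-07). IL1B was 3.42, 3.39 and 19.8 times higher (2.26, SE 0.44, edgeR adjusted p = 0.00158), the last ratio resting on the 4 counts of ALDHneg replicate 3. CXCL2 was higher by 1.03 (SE 0.24, edgeR adjusted p = 0.0062) and CXCL8 by 0.94 (SE 0.18, edgeR adjusted p = 0.00159), the latter 2.02, 1.55 and 2.51 times. IL1R1 was lower, at -0.50 (SE 0.09, edgeR adjusted p = 0.00129). These 5 of 9 compared with 21.9% of all genes (9.95% higher, 12% lower). CCL20 was at 1.34 (edgeR adjusted p = 0.0523) and passed without ALDHbr replicate 3 (1.69, 0.0136) or ALDHneg replicate 2 (1.90, 0.0191). CXCL1 was at 1.07 (edgeR adjusted p = 0.173) and passed without ALDHbr replicate 3 (1.53, 0.0227). With the block all 9 tested members passed, 8 higher and 1 lower, beside 35.2% of all genes. The contrasts under DMSO and under NIF, and those of NIF with DMSO, share their libraries.

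**Figure D3:**
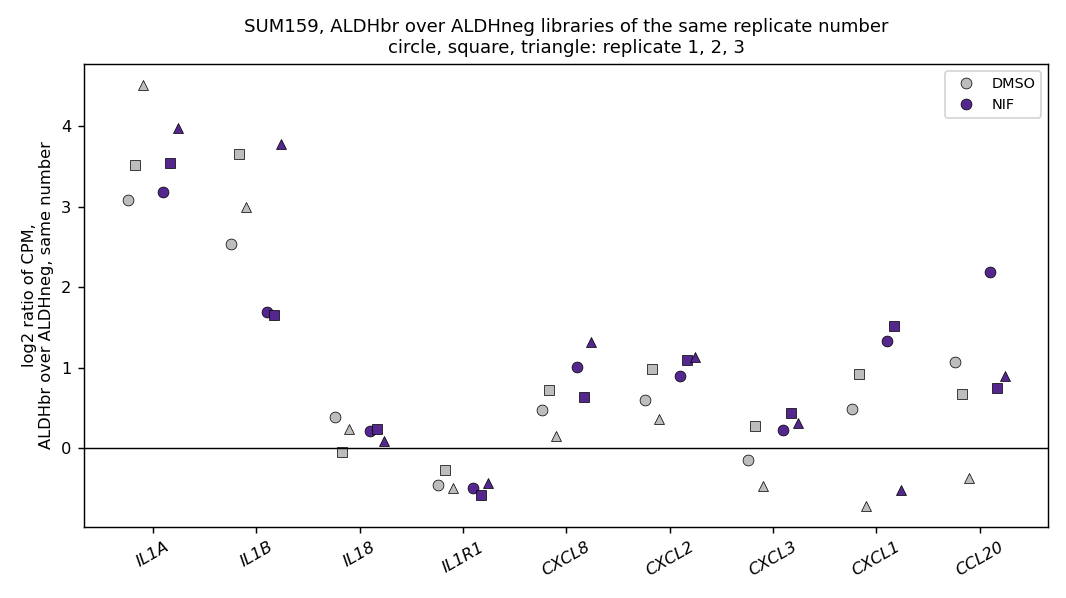
Log2 ratio of ALDHbr to ALDHneg CPM in SUM159 for each member but IL33 (y axis; grey, DMSO; purple, NIF; circle, square and triangle, replicate numbers 1, 2 and 3). IL1A lies at 8.54 to 23.4 times under DMSO and IL1B at 5.95 to 13.5 times, while CXCL8 lies at 1.55 to 2.51 times under NIF and IL1R1 below 0 in every pair.

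Few of these genes passed in SW620, where NIF changed much of the transcriptome. In ALDHbr cells 43.3% of all 13953 genes tested passed (21.4% higher, 21.9% lower), and 2 of the 8 members tested did. CXCL1 fell by 0.79 on the log2 scale (SE 0.23, edgeR adjusted p = 0.0131), from 2.36, 1.82 and 1.64 CPM under DMSO to 0.912, 1.55 and 0.943 CPM under NIF. The call was lost without replicate 1 of DMSO (-0.61, edgeR adjusted p = 0.0693) or of NIF (-0.64, 0.0651). IL1R1 was higher by 1.62 (SE 0.59, edgeR adjusted p = 0.0384), on 6, 10 and 5 counts under DMSO and 23, 20 and 15 under NIF. It passed the filter on low counts through the NIF libraries alone, so its value supports no statement on the members as a group. It lost its call without any of 4 of the 6 libraries: DMSO replicate 1 (1.45, edgeR adjusted p = 0.119) or 3 (1.44, 0.117) and NIF replicate 1 (1.56, 0.0918) or 2 (1.55, 0.0958). CXCL8 was at 0.15 (edgeR adjusted p = 0.319) and passed without DMSO replicate 1 (0.31, 0.0253). IL18 was at -0.0022 with an interval of -0.20 to 0.19.

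In the ALDHneg cells of SW620, where 45.1% of all genes passed, IL1R1 had counts of 16, 3 and 0 under DMSO against 18, 16 and 26 under NIF (1.63, SE 0.60, edgeR adjusted p = 0.039). As in ALDHbr cells it entered the test through the NIF libraries, and its value supports no statement on the members as a group. It did not pass without DMSO replicate 2 (1.31, edgeR adjusted p = 0.139) or 3 (1.12, 0.101), or without NIF replicate 1 (1.68, 0.0705), 2 (1.78, 0.0517) or 3 (1.42, 0.131). No other member passed in edgeR, and CXCL1 and CXCL2 had an unadjusted p under 0.05. CXCL2 was at 0.78 (edgeR adjusted p = 0.0568) and passed without DMSO replicate 2 (1.13, 0.0209). CXCL1 was at -0.53 (edgeR adjusted p = 0.0758) and passed without NIF replicate 3 (-0.70, 0.0464). CXCL8 stood at 0.18 (edgeR adjusted p = 0.218) on 5.20, 5.48 and 5.92 CPM under DMSO and 6.30, 6.30 and 6.21 under NIF, and these libraries did not overlap, as for 31.5% of all genes in this direction and 32% in the other.

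Between ALDHbr and ALDHneg cells of SW620 0 of 8 members passed in edgeR or DESeq2, under DMSO (11.3% of all genes passed, 5.45% higher and 5.86% lower) or under NIF (6.67%, 3.41% higher and 3.26% lower), or for the difference between the responses (0.00717%). At an unadjusted p under 0.05 the counts were 1 (CXCL3, under DMSO), 0 and 0. In edgeR 1 member passed under DMSO once ALDHbr replicate 3 was left out.

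The response to NIF differed between the lines for 4 of the 9 members tested in ALDHneg cells, where 22.4% of all genes differed (11.9% higher in SW620, 10.5% lower). The difference, SW620 minus SUM159, was 1.60 for CXCL8 (SE 0.26, edgeR adjusted p = 5.92e-05) and 1.85 for CXCL2 (SE 0.52, edgeR adjusted p = 0.0103). It was 1.69 for IL1R1 (SE 0.50, edgeR adjusted p = 0.0164) and -0.54 for IL18 (SE 0.17, edgeR adjusted p = 0.019). IL1B, at 1.93 (edgeR adjusted p = 0.0837), and CXCL3, at 1.11 (0.0852), did not pass. Without SUM159 NIF replicate 1 both did (IL1B at 2.48, edgeR adjusted p = 0.036, and CXCL3 at 1.37, 0.0324). IL1B failed the filter on low counts in SW620, with 4 to 13 counts per ALDHneg library. It entered this fit through SUM159, where it was chosen, so its values support no statement on a difference between the lines. IL1R1 lost its call without SW620 DMSO replicate 2 (1.36, edgeR adjusted p = 0.0807) or 3 (1.17, 0.063) or NIF replicate 3 (1.47, 0.0743). IL18 lost it without SUM159 DMSO replicate 1 (-0.45, edgeR adjusted p = 0.0727) or NIF replicate 3 (-0.40, 0.0858). With the replicate number as a block CXCL3 passed as well.

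Around these members, 113 further genes of the pathway were read, of which 60 were tested in each line. In SUM159 ALDHneg cells NIF lowered 9 of the 60, BIRC3 and IL6 among them, where 3.3% of all genes passed (2.2% lower). The feedback and target genes of NF-kappaB held 8 of these 9, with 8 of 18 lower and a list median of -0.56 beside 0.00333 over all genes. Named after their values were seen, they were BIRC3, an inhibitor of cell death (-0.999, edgeR adjusted p = 7.57e-05), NFKBIA, the main inhibitor of NF-kappaB (-0.68, 0.000696), TNIP1 (-0.58, 0.000746), SOD2, a mitochondrial superoxide dismutase (-0.65, 0.00798), TNFAIP2 (-0.39, 0.0167), TNFAIP3, a brake on the pathway (-0.93, 0.0331), and the cytokine gene CSF2 (-1.72, 0.0371), besides IL6. NFKBIA went from 154 to 188 CPM in the DMSO libraries to 96.1 to 120 CPM under NIF, and BIRC3 from 192 to 249 CPM to 112 to 114 CPM. IL6, another cytokine gene, fell from 18.0 ± 6.00 to 6.83 ± 2.75 CPM (n = 3; -1.39, SE 0.29, edgeR adjusted p = 0.0183). CSF2 rested on 19 to 41 counts per DMSO library and 5 to 14 per NIF library. The remaining gene was CASP1, which codes for caspase-1 (14.3 ± 1.96 to 10.4 ± 0.927 CPM, -0.47, edgeR adjusted p = 0.0199).

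In the fit that did not use the replicate number, BIRC3, NFKBIA, TNIP1 and SOD2 passed without any 1 library, while the other calls in that list did not. The count of 9 became 4 without DMSO replicate 1 or NIF replicate 3, and 5 without NIF replicate 2. Without DMSO replicate 1, TNFAIP3 was at -0.67 (edgeR adjusted p = 0.154), CSF2 at -1.27 (0.179), IL6 at -1.08 (0.0903), CASP1 at -0.35 (0.0885) and TNFAIP2 at -0.32 (0.0792). Without NIF replicate 3 they were at -0.79 (edgeR adjusted p = 0.146), -1.51 (0.156), -1.20 (0.0915), -0.40 (0.0992) and -0.36 (0.0836). TNFAIP3 (-0.88, edgeR adjusted p = 0.1), CSF2 (-1.63, 0.0999), IL6 (-1.26, 0.0697) and CASP1 (-0.48, 0.0536) were lost without NIF replicate 2 too, and CSF2 without NIF replicate 1 (-2.11, 0.0637). In the blocked fit with all libraries 24 of 60 passed, 23 lower and 1 higher, beside 13.2% of all genes (7.08% lower, 6.1% higher). TNFAIP3 (edgeR adjusted p = 2.19e-08), IL6 (2.32e-08), TNFAIP2 (9.29e-05), CASP1 (0.00111) and CSF2 (0.00354) were among those lower with the block. In SUM159 ALDHbr cells, as a description, 16 of the same 18 NF-kappaB genes had negative fold changes with a median of -0.40.

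**Figure D4:**
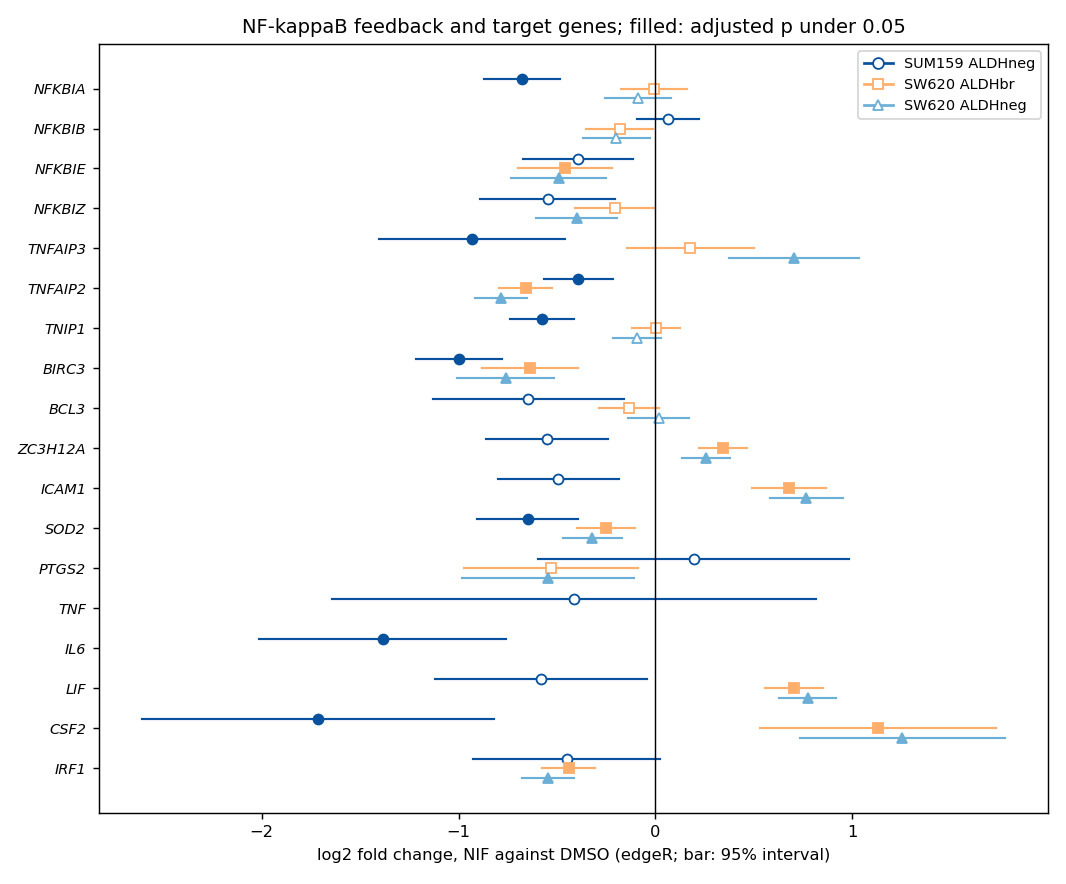
Log2 fold change of NIF against DMSO for the 18 feedback and target genes of NF-kappaB in SUM159 ALDHneg, SW620 ALDHbr and SW620 ALDHneg cells (x axis; points, edgeR estimates; bars, 95% intervals; filled, adjusted p under 0.05). In SUM159 8 genes passed, all lower. In SW620 ALDHneg cells 5 were higher and 7 lower of 16 tested.

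In SW620 the pathway genes passed at a share near that of all genes. In ALDHbr cells 14 of 60 rose and 13 fell, beside 43.3% of all genes (21.4% higher, 21.9% lower), and in ALDHneg cells 14 rose and 17 fell, beside 45.1% (22.3% higher, 22.7% lower), so these counts are no result about the pathway and the genes that follow are single values. The NF-kappaB list held 4 higher and 5 lower of 16 in ALDHbr cells, and 5 higher and 7 lower in ALDHneg cells. CSF2 and TNFAIP2 were its extremes: CSF2 rose by 1.13 and 1.26 (edgeR adjusted p = 0.00468 and 0.00076) from levels under 1 CPM, and TNFAIP2 fell (-0.66 and -0.78, 1.42e-06 and 1.79e-07). The subunit gene NFKB2 rose by 0.31 and 0.33 (edgeR adjusted p = 0.000274 and 0.000143), and NFKB1 fell (-0.27 and -0.29, 0.000859 and 0.000465). IL6 had no count in SW620.

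On the ligand and receptor side of SW620 the antagonist and the co-receptor rose. IL1RN, which codes for the IL-1 receptor antagonist, rose from 17.2 ± 1.17 to 25.8 ± 0.853 CPM in ALDHbr cells (0.58, edgeR adjusted p = 1.16e-05) and from 17.6 ± 1.06 to 27.5 ± 0.964 CPM in ALDHneg cells (0.64, 3.55e-06). IL1RAP, the partner of IL1R1, rose by 0.86 and 0.79 (edgeR adjusted p = 7.11e-05 and 0.000101). The decoy receptor gene IL1R2 fell in ALDHneg cells (-0.56, edgeR adjusted p = 0.00105), and IL18BP, which codes for the IL-18 binding protein, fell in ALDHbr cells (-0.47, 0.032). Its call in ALDHbr cells was lost without DMSO replicate 2 (-0.30, edgeR adjusted p = 0.139) or NIF replicate 2 (-0.44, 0.0911) or 3 (-0.33, 0.124). SUM159 held IL1RN at group means of at most 0.0934 CPM and IL1R2 at most 0.302 CPM, against 17.2 to 27.5 and 5.12 to 7.54 CPM in SW620.

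Among the inflammasome genes of SW620, CASP4, a caspase that senses bacterial lipopolysaccharide, rose by 0.53 and 0.71 in ALDHbr and ALDHneg cells (edgeR adjusted p = 2.54e-06 and 1.2e-07). The sensor gene NLRP3 fell in both (-1.35 and -2.63, edgeR adjusted p = 0.000161 and 2.14e-06), the latter from 1.78 ± 0.237 to 0.284 ± 0.0519 CPM. CASP1 was at 0 to 1 count per library in SW620, while PYCARD, the inflammasome adaptor, had no count in SUM159 and 4.25 to 9.75 CPM in SW620. Among the signalling genes IKBKG rose by 0.47 and 0.52 (edgeR adjusted p = 0.00018 and 6.76e-05), TAB1 fell in ALDHbr cells (-0.24, 0.003) and MYD88 in ALDHneg cells (-0.42, 0.00015). In the other population TAB1 went from 31.3 to 25.5 CPM (ALDHneg) and MYD88 from 43.3 to 37.7 CPM (ALDHbr). The difference between the 2 responses passed for neither TAB1 nor MYD88 (edgeR adjusted p = 0.961 and 0.881). Of the other chemokine genes CCL22, whose product attracts T cells through CCR4, rose from 0.113 ± 0.0910 to 1.27 ± 0.318 CPM (3.53, edgeR adjusted p = 4.32e-05) and from 0.331 ± 0.205 to 2.48 ± 0.346 CPM (2.86, 1.27e-05). The DMSO levels of CCL22 stood near the edge of detection, so the size of these fold changes is uncertain. Like IL1R1, it passed the filter on low counts through its NIF libraries, so its calls support no statement on the chemokine list. The chemokine receptor gene CXCR4 fell (-0.41 and -0.36, edgeR adjusted p = 0.00115 and 0.00299). CXCR1 and CXCR2, the receptors of the CXCL members, had at most 6 counts in any of the 24 libraries.

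The receptor and inflammasome genes of SUM159 also differed with the sort. Under DMSO 14 of 60 pathway genes were higher in ALDHbr cells and 6 lower, beside 23% of all genes (10.7% higher, 12.3% lower). Under NIF 15 were higher and 4 lower (12 in all without ALDHbr replicate 3), beside 21.9% (9.95% higher, 12% lower). Of the 7 receptor and decoy genes tested, 4 were higher in ALDHbr cells under DMSO: IL1RL1, the receptor of IL-33 (11.2 ± 3.06 against 2.67 ± 1.82 CPM, 2.08, edgeR adjusted p = 0.00113), IL18R1, the receptor of IL-18 (0.96, 9.48e-05), IL1RAP (0.61, 1.37e-05) and IL18BP, the binding protein of IL-18. CASP1 stood at 31.0 ± 1.33 CPM in ALDHbr and 14.3 ± 1.96 CPM in ALDHneg cells (1.11, edgeR adjusted p = 8.52e-07), and AIM2, a DNA sensor, was higher as well (1.26, 0.00945). NLRP1, another sensor, was lower (7.04 ± 0.795 against 15.4 ± 1.38 CPM, -1.13, edgeR adjusted p = 7.72e-05). IL18R1, IL1RAP and CASP1 were named here after their values were seen. IL6 was lower in ALDHbr cells (6.03 ± 2.03 against 18.0 ± 6.00 CPM, -1.59, edgeR adjusted p = 0.00121), opposite in sign to IL1A and IL1B, and so was CXCL16 (-1.90, 5.38e-05). ZC3H12A, which codes for an RNase that degrades cytokine transcripts (0.70, edgeR adjusted p = 0.00221), TAB3 (0.56, 0.000875) and ACKR4, a scavenging chemokine receptor (1.46, 0.000123), were higher. TOLLIP, at -0.20 (edgeR adjusted p = 0.0382), lost its call without any 1 of the 6 libraries (0.0544 to 0.144).

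In SW620 the same contrast under DMSO held 1 higher and 4 lower of 60, beside 11.3% of all genes. CXCR4 was higher in ALDHbr cells (0.45, edgeR adjusted p = 0.00322), TNFAIP2 lower (-0.53, 9.91e-05) and MYD88 lower (-0.28, 0.018). MYD88 did not pass without ALDHbr replicate 1 (-0.22, edgeR adjusted p = 0.0838) or 3 (-0.28, 0.0626), or without ALDHneg replicate 1 (-0.27, 0.0732) or 3 (-0.27, 0.0765). The count of 5 became 18 without ALDHbr replicate 2, and 3 without ALDHbr replicate 1 or 3 or ALDHneg replicate 1 or 3. Under NIF 3 were higher and 2 lower (3 in all without ALDHneg replicate 1), near the 6.67% of all genes. Between the lines the NIF response in ALDHneg cells differed for 19 of 74 pathway genes, 14 higher in SW620 and 5 lower, a share near the 22.4% of all genes (11.9% higher, 10.5% lower). The NF-kappaB list gave 7 higher and 1 lower of 18.

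The genes most like IL1B and CXCL8 were sought over the 12 SUM159 libraries among 12533 genes with a mean of at least 1 CPM, by Pearson r of log2 CPM. For IL1B they were EDNRA (0.9663), CASP1 (0.9649), DRAM1 (0.9597), ENKUR (0.9572) and SPATA6 (0.9556). For CXCL8 they were RNF145 (0.9764), NFKBIA (0.9737), MT1X (0.9666), TDRD3 (0.9625) and MIPEP (0.9621). The 12 libraries fall into 4 groups and 3 replicate numbers that all genes share, so high values describe a common order of groups. CASP1 and NFKBIA were on the pathway lists, the other 8 genes were not.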

How the data were processed

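Total RNA of sorted SUM159 and SW620 cells (24 libraries, 8 groups of 3) was sequenced from stranded total RNA libraries. Per the labels, the authors' processing notes name FastQC, STAR and the genome build GRCh38, without versions. The counting tool and annotation are not given in the sources used here. The deposited values are raw counts per gene for 28307 genes (4579 without a count). The 10 members and the gene lists were chosen with earlier results of these data known.

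The quasi-likelihood test of edgeR 4.0.16 (R 4.3.3) was run on the 12 libraries and 4 groups of each line, after filterByExpr and TMM scaling, with Benjamini-Hochberg adjustment over all genes tested and a threshold of 0.05. All 24 libraries entered 1 fit for the comparison of lines. CPM values use TMM library sizes, and log2 CPM a prior count of 2. Total counts per library were 30253187 to 43127948 (median 36520935). Replicates are independent experiments per the study's methods, and no 2 libraries of a group agreed within counting noise (chi-square per gene 1.97 to 46.1 over 24 pairs). Deviations of libraries with the same replicate number correlated at 0.1252 to 0.4509 in SUM159 (18 of 18 pairs over 0.1), so the number was taken to pair them, and at -0.2777 to 0.2143 in SW620 (1 of 18). The main tests nevertheless carried no block for the replicate number in either line, and the blocked fit is given as an alternative. Besides members, the text names the called gene at either end of each list with a mean of at least 1 CPM, and the 5 genes most like IL1B and CXCL8. Genes outside this rule are marked. Alternatives were other scalings, other filters on low counts, DESeq2 1.42.0, other sample sets, the replicate block and leaving out each library. Promoter windows came from RefSeq (GRCh38.p14). The steps were tested on simulated counts.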

Additional observations from a re-analysis of the deposited data

Results flagged for a closer look

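A test of the difference itself set 4 members apart in their response to NIF between the ALDHneg cells of the lines (edgeR, 1 fit over all 24 libraries). Taken as SW620 minus SUM159 on the log2 scale, the difference was 1.60 for CXCL8, 1.85 for CXCL2, 1.69 for IL1R1 and -0.54 for IL18. CXCL8 and CXCL2 passed without any 1 library, whereas IL1R1 and IL18 did not, as given above. IL1R1 had 0 to 26 counts per library in these SW620 groups.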

How the results depend on the processing

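Counts of members that passed depended on the setting more than their fold changes did. In SUM159 ALDHneg cells under NIF, 2 members passed, and 4 did with all 24 libraries in the fit, 8 with no filter on low counts, 5 with only the compared groups, 8 with the replicate block and 1 to 3 without single libraries. Between ALDHbr and ALDHneg cells of SUM159 under DMSO the count of 3 became 5 under the first 3 of these settings, 6 with the block and 3 to 5 without single libraries. Under NIF the count of 5 became 9 with the block and 5 to 7 without single libraries. For NIF in SW620 ALDHbr cells the count of 2 became 1 with all 24 libraries, with at least 10 counts in every library or with the block, and 0 to 2 without single libraries. In SW620 ALDHneg cells the count of 1 became 0 with at least 10 counts, 3 with library size alone, 2 with no filter, 4 with only the compared groups and 0 to 1 without single libraries. Between ALDHbr and ALDHneg cells of SW620 under DMSO it was 0 to 1. Of the pathway genes, the count of 9 in SUM159 ALDHneg cells became 16 with all 24 libraries, DESeq2 or no filter, 24 with the block and 4 to 13 without single libraries. The count of 5 between the SW620 populations under DMSO became 9 in DESeq2, 3 with only the compared groups and 3 to 18 without single libraries. Under NIF the count of 5 became 2 with all 24 libraries and 3 to 5 without single libraries, and that of 19 in SUM159 became 12 to 17.

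Signs turned for some members that had not passed. For IL18 under NIF in SW620 ALDHbr cells the log2 fold change of -0.0022 became 0.000595 with all 24 libraries, 0.00261 in DESeq2, 0.00657 with no filter, 0.00418 with only the compared groups, 0.00162 with RLE scaling and -0.0759 to 0.0807 without single libraries. In the same comparison CXCL3 ran from -0.28 to 0.0466 and IL1A from -0.79 to 0.14 without single libraries. IL1A ran from -0.15 to 0.42 in SW620 ALDHneg cells, IL1R1 from -0.14 to 0.0326 in SUM159 ALDHneg cells, and CXCL3 from -0.30 to 0.16 between the SUM159 populations under DMSO. No call of a member or named gene turned in sign under the alternatives run. The cause of these changes was not tested. The replicate numbers did not pair the SW620 libraries, and the block changed no call of a named gene there but that of IL1R1 in ALDHbr cells (edgeR adjusted p = 0.0527 with the block, the highest over its alternatives, the lowest being 0.00933). In SUM159 the block changed no call of a named gene beyond those given above. With a prior count of 0.5 the 5 likeness values of IL1B ran from 0.9533 to 0.9617. Depth limited IL33 in both lines and IL1A, IL1B and IL1R1 in SW620.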
